A study of Homo sapiens with 16 samples.

Results

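The regions described here are the open-chromatin peaks that set glioblastoma cells given belinostat alone apart from the same cell line given AsiDNA alone. They were chosen by position: a peak counted as unshared where no peak of the other drug's list overlapped it by 1 bp or more, on chromosomes 1 to 22 and X. Of 138937 belinostat peaks, 29346 had no AsiDNA counterpart (21.1%, Wilson 95% interval 20.9 to 21.3). Of 138273 AsiDNA peaks, 29276 had no belinostat counterpart (21.2%, interval 20.96 to 21.4). Together these are 58622 of the 542393 peaks in the study's 4 lists.

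The study asked whether AsiDNA and belinostat change chromatin accessibility in U87, an established glioblastoma cell line, and measured it by NicE-seq in 16 libraries, 4 to a group. The groups are vehicle (labelled Control_DMSO), belinostat alone (Control_Bel), AsiDNA alone (Asi_DMSO) and the combination (Asi_Bel). The protocol gives belinostat as 1 µM for 24 h, while dose and duration of AsiDNA stand in none of the labels used here. The protocol also speaks of MTU87 and LTAU87 cells without tying either name to a group, so the cells behind a list may differ in more than the drug named. The deposited lists hold 1 set of peaks per group, made from 4 libraries. No spread between replicates can be measured from 1 list a group, and no test between groups was possible. All intervals below treat peaks, promoters or genes as independent. They cover counting error only or, for mean gene density, the scatter between peaks. The read depth behind the lists is unknown. The lists are of like length, with 130318 peaks for vehicle and 134865 for the combination. Peaks stood at the starts of the glial and mesenchymal genes NES, VIM, SOX2, SOX9, OLIG2, CD44 and EGFR in all 4 lists. GFAP, the defining astrocyte filament gene, had a start peak in none, and CHI3L1 had one in the vehicle list only. CDKN2A and CDKN2B, which U87 is known to lack, had no peak in any list.

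Belinostat is a hydroxamate that blocks histone deacetylases, the enzymes that take acetyl groups off histone tails. Acetylated histones hold DNA less tightly, and such inhibitors are known to shift open chromatin at many places at once. AsiDNA is a short double-stranded DNA molecule that imitates a broken DNA end; it is known to draw repair enzymes such as DNA-PK and PARP away from real breaks. NicE-seq marks open chromatin in fixed nuclei: the nicking enzyme Nt.CviPII cuts 1 strand of accessible DNA at CCA, CCG or CCT, and a polymerase fills in biotin-tagged nucleotides from the nick.

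Promoter sequences show what the enzyme met at the strongest gene-start peaks of each drug. The 4 belinostat promoters below are those, among the 10 genes with the strongest belinostat-only start peak, whose 250 bases before the start were touched by that peak. They are given 5′ to 3′ from RefSeq (GRCh38.p14, the same assembly as the lists' hg38), with capitals for CCA, CCG and CCT on the printed strand. ZNF132, a zinc finger gene, lies on the minus strand at chr19:58440154-58440403; CFAP107, for a protein of motile cilia, on the plus strand at chr1:12745950-12746199; SSTR3, a somatostatin receptor gene, on the minus strand at chr22:37212478-37212727; and INHBA, for the activin A subunit, on the minus strand at chr7:41703091-41703340.
ZNF132: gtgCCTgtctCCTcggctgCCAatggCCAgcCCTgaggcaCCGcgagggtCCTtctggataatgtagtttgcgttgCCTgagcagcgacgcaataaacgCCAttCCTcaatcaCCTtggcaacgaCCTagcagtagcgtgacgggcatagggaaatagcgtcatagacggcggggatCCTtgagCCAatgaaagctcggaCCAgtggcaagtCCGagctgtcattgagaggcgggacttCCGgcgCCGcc
CFAP107: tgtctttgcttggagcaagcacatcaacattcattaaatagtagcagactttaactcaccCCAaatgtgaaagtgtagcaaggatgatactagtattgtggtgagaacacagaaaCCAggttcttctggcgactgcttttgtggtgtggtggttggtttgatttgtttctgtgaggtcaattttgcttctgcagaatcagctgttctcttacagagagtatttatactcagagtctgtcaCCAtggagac
SSTR3: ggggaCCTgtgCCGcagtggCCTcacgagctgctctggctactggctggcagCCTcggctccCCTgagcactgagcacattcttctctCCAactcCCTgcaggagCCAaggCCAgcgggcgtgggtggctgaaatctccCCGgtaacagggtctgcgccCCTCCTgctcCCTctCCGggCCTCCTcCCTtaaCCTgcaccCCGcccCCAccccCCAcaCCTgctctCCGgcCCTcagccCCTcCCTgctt
INHBA: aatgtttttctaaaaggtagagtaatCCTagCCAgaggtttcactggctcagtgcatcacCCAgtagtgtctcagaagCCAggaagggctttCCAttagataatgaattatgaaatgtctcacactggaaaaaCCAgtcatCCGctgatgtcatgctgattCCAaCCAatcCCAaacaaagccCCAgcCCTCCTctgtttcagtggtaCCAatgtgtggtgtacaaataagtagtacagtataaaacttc

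The AsiDNA promoters chosen in the same way were 3. KRTAP4-1, a hair keratin-associated gene, lies on the minus strand at chr17:41184912-41185161. FGL2, for a secreted fibrinogen-like protein, lies on the minus strand at chr7:77199820-77200069. ZCCHC12, for a zinc finger protein, lies on the plus strand at chrX:118823574-118823823.
KRTAP4-1: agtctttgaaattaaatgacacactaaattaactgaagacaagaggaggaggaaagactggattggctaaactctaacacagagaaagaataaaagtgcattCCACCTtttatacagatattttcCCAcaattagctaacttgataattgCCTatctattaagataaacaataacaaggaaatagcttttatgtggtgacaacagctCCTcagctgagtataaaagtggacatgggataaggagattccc
FGL2: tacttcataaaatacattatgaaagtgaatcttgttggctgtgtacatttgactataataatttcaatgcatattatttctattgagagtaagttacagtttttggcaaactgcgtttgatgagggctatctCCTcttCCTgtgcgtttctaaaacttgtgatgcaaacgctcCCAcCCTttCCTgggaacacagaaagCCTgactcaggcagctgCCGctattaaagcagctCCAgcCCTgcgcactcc
ZCCHC12: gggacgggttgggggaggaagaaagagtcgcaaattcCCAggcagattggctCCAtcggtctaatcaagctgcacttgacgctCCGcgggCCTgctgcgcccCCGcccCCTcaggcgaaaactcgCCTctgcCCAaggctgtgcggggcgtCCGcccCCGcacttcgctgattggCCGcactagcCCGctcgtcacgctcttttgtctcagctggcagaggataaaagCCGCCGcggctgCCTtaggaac

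Base composition varied within both sets. The belinostat promoters held 19 CpG dinucleotides at ZNF132, 10 at SSTR3, 1 at CFAP107 and 1 at INHBA. The AsiDNA promoters held 22 at ZCCHC12, 5 at FGL2 and 0 at KRTAP4-1. Sites of the nicking enzyme, counted on both strands of the 250 bases, ranged from 14 at CFAP107 to 40 at SSTR3 for belinostat, and from 14 at FGL2 to 30 at ZCCHC12 for AsiDNA. Over all 22132 listed promoters, of 300 bases each, the median was 42 sites and 99.99% held a CCA. The presence of sites therefore does not mark the promoters shown.

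The single drugs differed from each other about as much as belinostat differed from vehicle. After joining overlapping peaks of both lists, 165549 regions were open with either drug and 107735 of them with both (65.1%, interval 64.8 to 65.3). The same share was 64.6% for vehicle and belinostat, 66.8% for vehicle and the combination, 67.2% for AsiDNA and the combination, 74.0% for vehicle and AsiDNA, and 75.7% for belinostat and the combination. The lists thus stood in pairs, AsiDNA next to vehicle and belinostat next to the combination.

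The vehicle list, which took no part in choosing the regions, split the unshared peaks unevenly. Of the AsiDNA-unshared peaks 49.4% also had a vehicle peak, against 19.2% of the belinostat-unshared peaks. The combination list split them the other way, with a peak at 24.97% of the AsiDNA-unshared and 52.1% of the belinostat-unshared regions. Among peaks shared by both drugs, over 9 in 10 had a vehicle peak. The commonest pattern after presence in 1 list alone was belinostat with the combination and without vehicle, at 11368 belinostat-unshared peaks (38.7%, interval 38.2 to 39.3). Its mirror, AsiDNA with vehicle and without the combination, took 9504 AsiDNA-unshared peaks (32.5%). The opposite patterns were much rarer: 2343 AsiDNA-unshared peaks (8.00%) recurred in the combination and not in vehicle, and 1715 belinostat-unshared peaks (5.84%) in vehicle and not in the combination. Peaks with neither counterpart made up similar shares, 12343 for belinostat (42.1%, interval 41.5 to 42.6) and 12461 for AsiDNA (42.6%).

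**Figure D1:**
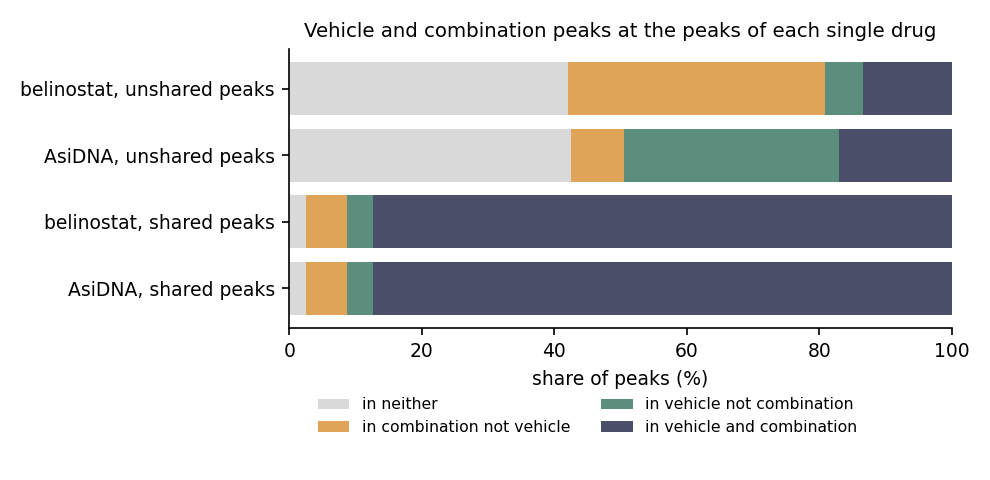
Stacked bars give the share of peaks (%) of each single-drug list, unshared or shared with the other drug, by whether the vehicle and combination lists hold an overlapping peak. Belinostat-unshared peaks recur mainly in the combination (38.7% there and not in vehicle), AsiDNA-unshared peaks mainly in vehicle (32.5% there and not in the combination), and about 42% of each recur in neither.

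Seen from the vehicle list, 99890 of its 130318 peaks (76.7%) had a counterpart with both drugs. A further 14613 (11.2%) had one with AsiDNA only and 5677 (4.36%) with belinostat only. The first set was thus 2.57 times as large as the second (interval 2.50 to 2.65). Vehicle peaks with a counterpart in neither list numbered 10138 (7.78%).

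Most unshared peaks were weak within their own list. Ranked by the authors' fold enrichment from 0 (weakest) to 100 (strongest), the median percentile was 20.3 for belinostat-unshared and 21.1 for AsiDNA-unshared peaks, against 59.6 and 58.9 for the peaks the drugs shared. Below a percentile of 10, 58.5% of belinostat and 54.997% of AsiDNA peaks were unshared, and above 90, 0.245% and 0.738%. A peak near the calling limit is easily missed in another list, so these values describe the regions and carry no comparison between drugs. The weakest peaks listed had a q-value of 0.0497.

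In the upper part of each list by strength, the drugs stood farther apart than over all unshared peaks. At or above the middle of its list, belinostat had 2804 unshared peaks, 92.9% with a combination peak and 34.2% with a vehicle peak. AsiDNA had 3953, 44.8% with a combination peak and 87.3% with a vehicle peak. Above a percentile of 90 belinostat had 34 unshared peaks, of which 34 recurred in the combination and 17 in vehicle. AsiDNA had 102 there, of which 102 recurred in vehicle and 75 in the combination. The combination shares there, 100% and 73.5%, were no farther apart than the 52.1% and 24.97% over all unshared peaks. Strong AsiDNA-unshared peaks without a vehicle peak were therefore not seen at that level, whereas strong belinostat-unshared peaks without one made up 17 of 34.

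Unshared peaks were narrow. The median width was 273 bp with belinostat (quartiles 226 and 354) and 262 bp with AsiDNA (221 and 339), against 454 and 460 bp for shared peaks and 398 bp for the whole vehicle list. Peaks of 1000 bp or more numbered 30 among the belinostat-unshared and 66 among the AsiDNA-unshared. The whole lists held 6923 with belinostat and 8985 with AsiDNA, so nearly all peaks that broad overlapped a peak of the other drug. A wide peak meets the 1 bp rule more easily than a narrow one. These widths therefore describe the regions and carry no comparison between drugs. An unshared belinostat peak lay a median of 4.32 kb from the nearest AsiDNA peak, and an unshared AsiDNA peak 4.74 kb from the nearest belinostat peak. Near misses were few: 8.68% of the belinostat and 9.54% of the AsiDNA peaks had a peak of the other drug within 500 bp.

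Both sets lay mainly away from gene ends. A summit fell within 1000 bp of either end of a protein-coding gene for 3.78% of belinostat-unshared peaks (interval 3.57 to 4.01) and 4.30% of AsiDNA-unshared peaks (4.07 to 4.54). That share was 11.8% and 11.6% for shared peaks and 10.6% for the vehicle list. The order of the drugs turned where summits within 250 bp (6.64% and 6.48%) or peaks within 500 bp (3.43% and 3.28%) counted as shared. Summits inside gene bodies made up 45.2% of the belinostat-unshared peaks, within the interval for AsiDNA (44.4 to 45.6), and summits between genes 51.1% and 50.7%. The drugs separated in distance: the median to the nearest gene end was 28.3 kb for belinostat-unshared and 40.9 kb for AsiDNA-unshared peaks. Shared peaks stood at 25.5 and 25.6 kb and vehicle peaks at 28.2 kb, so it was the AsiDNA set that lay farther out.

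Local gene density set the drugs apart. Counting protein-coding genes within 500 kb on each side of the summit, belinostat-unshared peaks had a mean of 9.97 genes (interval 9.87 to 10.1) and AsiDNA-unshared peaks 7.87 (7.78 to 7.97), a ratio of 1.27 (1.247 to 1.288). Neighbouring peaks count the same genes, so these intervals, taken over single peaks, are too narrow. Shared peaks had a mean of 9.95 genes with either drug and the vehicle list 9.52. Vehicle peaks with a counterpart in neither drug's list had a mean of 7.70, beside 7.71 for those with AsiDNA only. Those with belinostat only had 9.25 and those with both drugs 9.98. A low mean was thus not particular to the AsiDNA-unshared peaks. The ratio of belinostat-unshared to AsiDNA-unshared means was 1.26 among peaks without a vehicle counterpart and 1.196 among those with one. It was 1.34 among peaks at or above the middle of their list. Within each of the 23 chromosomes the ratio was above 1, from 1.01 on chromosome 22 to 1.37 on chromosome 13, with a median of 1.19.

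The share of peaks that were unshared changed with gene density for AsiDNA and hardly at all for belinostat. Where no gene lay in the window, 35.7% of AsiDNA peaks were unshared. With 1 to 2 genes it was 25.1%, with 6 to 10 genes 20.5%, and with 21 genes or more 14.4%. For belinostat the share stayed between 20.7% and 21.7% in all 6 classes. The ratio of belinostat-unshared to AsiDNA-unshared peaks accordingly went from 0.496 (interval 0.465 to 0.529) without genes to 1.60 (1.52 to 1.69) at 21 genes or more.

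**Figure D2:**
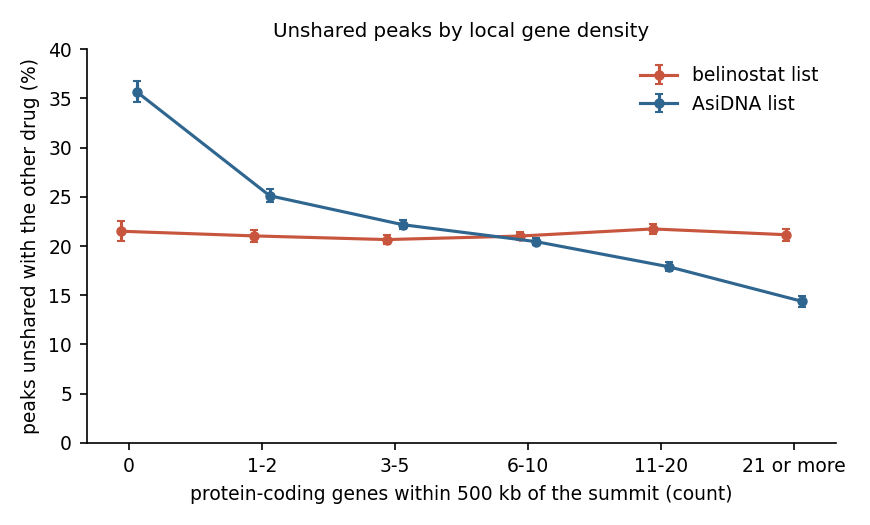
Points give the share of each drug's peaks (%) that the other drug lacks, by the number of protein-coding genes within 500 kb of the summit; bars are Wilson 95% intervals for counting error. AsiDNA goes from 35.7% without genes to 14.4% at 21 or more, and belinostat stays between 20.7% and 21.7%.

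Chromosomes followed the same order. The ratio of belinostat-unshared to AsiDNA-unshared peaks was highest on chromosome 19, the most gene-dense one, at 1.74 (926 against 531 peaks, interval 1.57 to 1.94). Chromosome 22 came next at 1.52 (563 against 371), and chromosomes 17 and X both stood at 1.21. It was lowest on the gene-poor chromosomes 13 (0.794), 18 (0.798) and 4 (0.798), whose intervals overlap. Across the 23 chromosomes the ratio and the genes per Mb had a Spearman rho of 0.84 and a Pearson r of 0.85, and without chromosome 19 0.82 and 0.73. All points come from the same pair of lists, so these coefficients describe them only. Chromosome X stood above chromosomes of like gene density, such as chromosome 3 at 0.895 and chromosome 10 at 0.977.

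**Figure D3:**
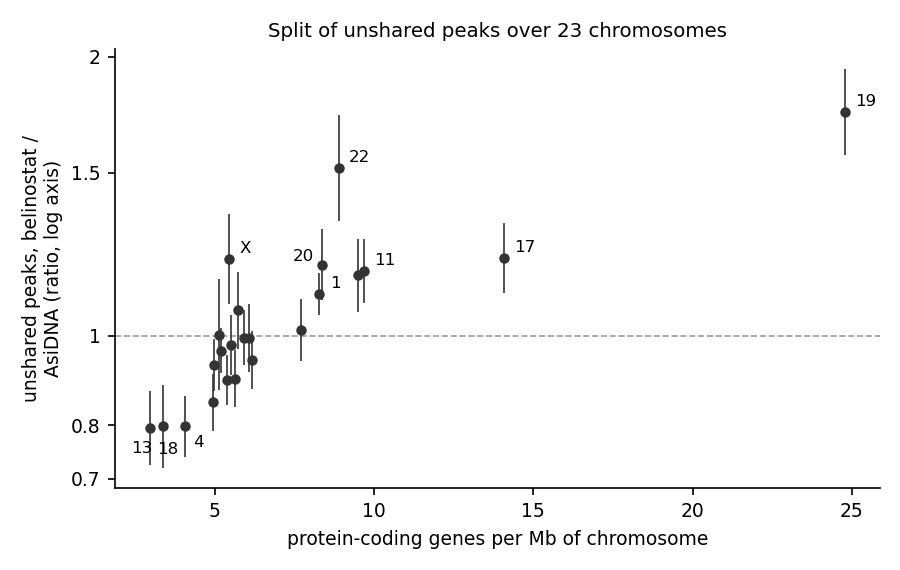
Each point is a chromosome, with protein-coding genes per Mb on the x axis and the ratio of belinostat-unshared to AsiDNA-unshared peaks on a log y axis; bars are 95% counting intervals and the dashed line marks equal numbers. Chromosomes 19 (1.74) and 22 (1.52) stand highest, and 13 (0.794), 18 and 4 lowest.

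Part of the AsiDNA set was crowded into a few stretches without a gene midpoint, many of them at or beside a centromere. In 1 Mb steps along the genome, 31 windows on 12 chromosomes held no protein-coding gene midpoint and 50 or more vehicle peaks. They held 1489 AsiDNA-unshared and 572 belinostat-unshared peaks, a ratio of 0.384 (interval 0.349 to 0.423). All peaks in these windows numbered 3658 with vehicle, 3646 with AsiDNA, 3069 with the combination and 2755 with belinostat. The lean was not the same throughout: 27 windows held more AsiDNA-unshared peaks and 3 more belinostat-unshared peaks. Among the latter was chr7:46000001-47000000, with 17 belinostat-unshared and 8 AsiDNA-unshared peaks. Many of the 31 windows lie at or beside a centromere in this build, where near-identical repeats make read placement uncertain. Examples are chr1:122000001-125000000, chr2:92000001-94000000, chr8:44000001-46000000 and chr9:43000001-46000000. Whether such repeats bear on the counts, and how far the lean belongs to gene-free stretches elsewhere, was not tested. The 5 windows that leaned most to AsiDNA in the genome all lie within these examples. The first was chr9:44000001-45000000 with 171 AsiDNA-unshared and 49 belinostat-unshared peaks, and the second chr2:92000001-93000000 with 97 and 14. The other 3 were chr9:45000001-46000000 with 72 and 13, chr8:45000001-46000000 with 44 and 4, and chr8:44000001-45000000 with 48 and 6. With these 31 windows set aside, a choice made after their counts were seen, the ratio of mean gene density was 1.23 (1.207 to 1.246), and with all gene-free windows set aside 1.202 (1.18 to 1.22).

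Windows that leaned to belinostat held more genes on average, though not each of them did. Windows were ranked by a score d, the difference of the counts divided by the square root of their sum, which is not a test. The first was chr11:69000001-70000000, with 38 belinostat-unshared and 6 AsiDNA-unshared peaks; its 10 genes include CCND1, the cyclin D1 gene, and the growth factor genes FGF19, FGF4 and FGF3. All peaks there numbered 95 with belinostat, 86 with the combination, 71 with vehicle and 61 with AsiDNA. The window was picked for its lean to belinostat over AsiDNA, so only the combination and vehicle counts stand outside the choice. Another was chr19:50000001-51000000 (38 against 8), which holds the kallikrein protease genes KLK1 to KLK8, KLK15, SHANK1 and POLD1 among 32 genes. Also among the first 5 by d were chr11:64000001-65000000, with MEN1, ESRRA and VEGFB among 36 genes (29 against 4), and chr12:108000001-109000000, with CORO1C, SSH1 and TMEM119 among 11 (33 against 7). Of 2779 windows, 199 had a d of 2 or more, with a mean of 14.4 genes, and 189 had a d of -2 or less, with a mean of 3.201; all windows had 7.10.

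At promoters the drugs parted by CpG content. CpG-rich promoters are typical of widely used genes, and CpG-poor ones of tissue-restricted genes. Over 22132 listed promoters, from 250 bases before to 50 after the start, 279 were touched by an unshared belinostat peak and no AsiDNA peak, and 383 by an unshared AsiDNA peak and no belinostat peak. A further 88 with belinostat and 233 with AsiDNA were touched by 1 drug only, through a peak shared outside the promoter. Of these, 46.6% and 76.0% had 10 or more CpG, and they are not counted below as belinostat-only or AsiDNA-only. The belinostat-only promoters had a median of 6 CpG dinucleotides (quartiles 3 and 12), and 89 of 279 had 10 or more (31.9%, interval 26.7 to 37.6). The AsiDNA-only promoters had a median of 17 (quartiles 6 and 34), and 247 of 383 had 10 or more (64.5%, 59.6 to 69.1). The gap between these shares, 32.6 percentage points, was 20.9 to 35.0 under 2 alternative settings. Promoters open with both drugs had a median of 27, promoters open with neither 7, and all promoters 21.

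In the poorest class, 0 to 4 CpG, 119 promoters were belinostat-only and 81 AsiDNA-only (ratio 1.47, interval 1.11 to 1.95). In the richest, 30 or more, 28 were belinostat-only and 124 AsiDNA-only (ratio 0.226, interval 0.150 to 0.339). Counting shared and unshared peaks, 81.3% of the 6406 richest promoters were open with AsiDNA, 79.8% with vehicle, 79.0% with the combination and 78.8% with belinostat. Among the 4018 poorest the open share was 15.8% with belinostat, 15.0% with the combination, 14.9% with AsiDNA and 13.9% with vehicle. Of the 247 AsiDNA-only promoters with 10 or more CpG, 50.6% also had a vehicle peak and 29.1% a combination peak. Of the 190 belinostat-only promoters with fewer, 18.9% had a vehicle peak and 50.5% a combination peak. These peaks were weak, with median percentiles of 12.9 and 16.4, and 35.6% of the CpG-rich AsiDNA-only promoters had a belinostat peak within 1000 bp. Sites of the nicking enzyme (CCA, CCG or CCT, both strands) numbered a median of 39 in belinostat-only and 43 in AsiDNA-only promoters, with CCG, which overlaps a CpG, at 4 and 13. The other 2 sites went the other way, with CCA at 14 and 11 and CCT at 15 and 14. Of the 3 sites only CCG thus moved with CpG content, and the part of the nick sites in the split was not tested.

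**Figure D4:**
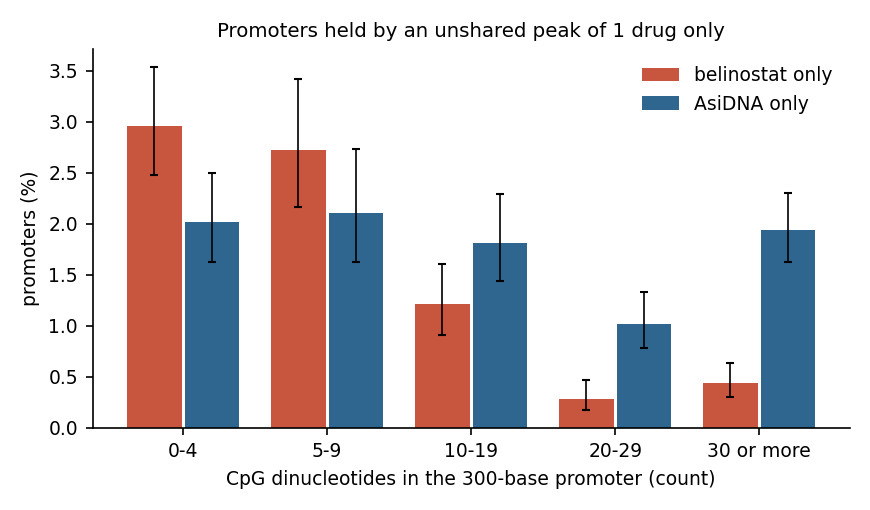
Bars give the share (%) of promoters in each class of CpG count that is touched by an unshared peak of 1 drug and no peak of the other; error bars are Wilson 95% intervals for counting error. The belinostat-only share exceeds the AsiDNA-only share at 0 to 4 CpG (119 against 81 promoters), and the order is turned at 30 or more (28 against 124).

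Counted by gene, the drugs were level. A gene was called open where a peak came within 1000 bp of a listed start, or of either end for the 4162 of 19974 protein-coding genes with no listed start. In this way 12971 genes were open with both drugs, 462 with belinostat only (2.31%) and 454 with AsiDNA only (2.27%), a ratio of 1.02 (interval 0.894 to 1.16). What differed was the company they kept. Of the 462 belinostat-only genes 103 also had a vehicle peak and 221 a combination peak, and of the 454 AsiDNA-only genes 228 had a vehicle peak and 135 a combination peak.

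The strongest belinostat-only start peaks stood at genes of varied function. At ANGPTL7, for a secreted angiopoietin-like protein, the authors' fold enrichment was 10.2 in the belinostat list and 8.77 in the combination list, and neither vehicle nor AsiDNA had a peak. CD300LB, for a myeloid immune receptor, had 8.48 and 6.84 and SSTR3 had 7.84 and 5.13, again without vehicle. At INHBA the fold enrichment was 7.50 with belinostat, 5.85 with the combination and 4.21 with vehicle. ZNF132 had 8.17, 6.73 and 3.42, CFAP107 8.11, 6.46 and 6.13, and GRM4, a metabotropic glutamate receptor gene, 7.88, 5.08 and 3.78 in the same lists. TPRX2, an early embryonic homeobox gene, had 11.6, 9.003 and 5.44, and LDLRAD2 8.20, 7.36 and 5.04. The strongest of all, GOLGA6C at 12.6, belongs to a golgin family with near-identical copies on chromosome 15, so its reads may be shared with them. All 10 of these genes had a combination peak and 6 of 10 a vehicle peak. Fold enrichments are the authors' values for single peaks and were not compared across lists by any test.

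The strongest AsiDNA-only start peaks all had a vehicle peak. KRTAP4-1 had a fold enrichment of 12.1 with AsiDNA, 12.3 with vehicle and 9.003 with the combination. ZBED2, for a BED-type zinc finger factor, had 11.1, 9.49 and 5.77. FGL2 had 10.0, 8.99 and 4.62, and LOXHD1, a hearing gene, 8.43, 5.44 and 3.85. SLC26A9, an anion transporter gene, had 9.17 with AsiDNA and 7.68 with vehicle and no combination peak. ZCCHC12 (7.94 and 4.26), TRIML1 (7.08 and 7.17) and TMEM171 with its neighbour LOC124901001, which share a peak (7.63 and 6.39), likewise had none. FCGR1A, the high-affinity IgG receptor gene, had 9.22 with AsiDNA, 7.49 with vehicle and 3.44 with the combination; it has close copies on chromosome 1. With a window of 500 bp, 11 of these 20 genes kept their call, and with 2000 bp 17 did. With either gene end in place of the start 13 did; GOLGA6C, CD300LB, GRM4, SSTR3, INHBA, SLC26A9 and TRIML1 lost it.

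Away from gene ends, the strongest belinostat-unshared peaks were new against vehicle and present in the combination. The first, chr5:134927011-134927215 inside PCBD2, had a fold enrichment of 23.4 (belinostat) and 24.1 (combination). The second, chr17:53106131-53106394, had 22.7 and 20.8. Both were narrow, at 205 and 264 bp, and an AsiDNA peak lay 1.42 kb from the first. The others lay inside BIVM (15.3 and 10.9), 84.4 kb from HS3ST3A1 (14.9 and 11.4) and inside KIF6 (14.9 and 7.16). None of the 5 had a vehicle peak. The strongest AsiDNA-unshared ones had one in each case. They were chr4:116688442-116688970, nearest to TRAM1L1 (19.9 with AsiDNA, 14.4 with vehicle, 5.08 with the combination), and chr18:28593952-28594390, nearest to CDH2, the N-cadherin gene (18.4, 16.9 and 6.23). The peak at chr17:26625564-26625776 had 18.2, 15.2 and 17.1, so there the combination stood near AsiDNA. The last 2 lay 19.1 kb from RPE65 (17.8, 11.8 and 3.46) and nearest to LOC124909494 on chromosome 3 (17.5, 12.1 and 8.31). Whether the reads at the distal peaks named here, of either drug, belong to 1 place in the genome only was not tested.

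Some genes collected many unshared peaks of 1 drug along their bodies. Of 1682 genes with 5 or more unshared peaks, 85 had a d of 2 or more (5.05%) and 97 a d of -2 or less (5.77%). With peaks of −log10 q of 5 or more these were 50 and 76, and with the limit asked of present peaks only 35 and 71. NHS on chromosome X, the gene of Nance-Horan syndrome, held 19 belinostat-unshared peaks and 1 AsiDNA-unshared peak. All its peaks numbered 57 with belinostat, 49 with the combination, 39 with vehicle and 36 with AsiDNA. TSPAN18, a tetraspanin gene, held 17 and 1, with 31, 23, 16 and 15 peaks in the same order of lists. CDH23, an atypical cadherin gene, held 14 and 0 (38, 35, 26 and 25 in all) and DAB2IP, for a Ras GTPase-activating protein, 14 and 1 (28, 25, 14 and 14). PREX1, for a Rac activator, held 11 and 0, GSE1 18 and 3, LRP5, a WNT co-receptor gene, 9 and 0, and COL23A1, a transmembrane collagen gene, 17 and 4. The choice by d already favours more peaks with belinostat than with AsiDNA in these 8 bodies. In each of them the combination list, which took no part in the choice, held more peaks than the vehicle list.

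AsiDNA-unshared peaks gathered in longer genes. FGF12, for an intracellular FGF-like protein, held 15 and no belinostat-unshared peak. All its peaks numbered 28 with AsiDNA, 23 with vehicle, 18 with the combination and 13 with belinostat. MAPK10, the JNK3 kinase gene, held 16 against 1, with 35, 28, 21 and 19 peaks in the same order. ROBO1, the receptor gene for SLIT guidance cues, held 22 against 5 (72, 60, 57 and 55 in all). PROM1, the CD133 gene used as a glioma stem cell marker, held 9 against 0 (13, 10, 4 and 4). DTNB held 11 against 0, PTPRK, a receptor phosphatase gene, 15 against 2, TCF12, for a bHLH factor, 12 against 1, and CEP112 14 against 2. The 97 genes leaning to AsiDNA had a median length of 341 kb and the 85 leaning to belinostat 173 kb, against 212 kb for all 1682. The part of gene length in this lean was not tested.

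**Figure D5:**
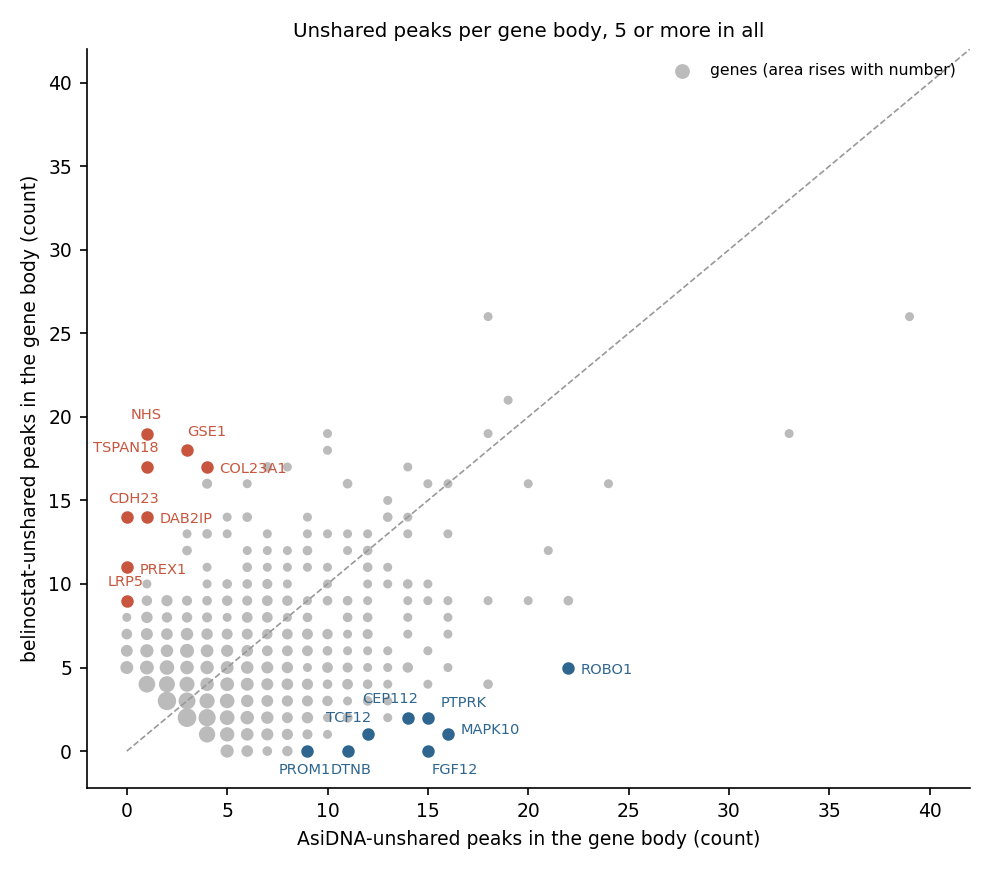
Each grey point is 1 or more of the 1682 genes with 5 or more unshared peaks, by the number of AsiDNA-unshared (x axis) and belinostat-unshared peaks (y axis) in the body; the dashed line marks equal numbers. The 8 genes with the largest d in each direction are coloured, from NHS (19 against 1) above the line to ROBO1 (5 against 22) below it.

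Genes of the pathways the drugs act on were mostly open with both drugs, beside 64.9% of all genes. Over all genes only 2.31% were open with belinostat only and 2.27% with AsiDNA only, so lists this short can hold few such members. All 14 members of the DNA-PK and end-joining list, all 16 of PARP and single-strand break repair, all 21 of the damage checkpoint and 27 of 28 of resection and homologous recombination had start peaks with both drugs, and none with 1 drug only. The same held for all 7 class I, IIb and IV deacetylases, all 7 sirtuins, 25 of 27 corepressor complex genes, 15 of 16 acetyltransferases and BET readers, all 20 p53 targets and all 15 genes known to rise with deacetylase inhibitors. Across the 446 distinct genes of the 26 lists, 346 were open with both drugs (77.6%), 84 with neither, 7 with belinostat only (1.57%) and 9 with AsiDNA only (2.02%). The shares open with 1 drug only are close to the 2.31% and 2.27% over all genes. The median difference in unshared body peaks was 0 over all genes and in each of the 26 lists but 1. The mesenchymal glioma genes stood at -1, with 12 of 20 members leaning to AsiDNA and 4 to belinostat. Over all 19974 genes, 4039 leaned to AsiDNA and 4190 to belinostat. Of all genes 10478 had no unshared peak in the body, against 3 of these 20.

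The list genes open with 1 drug were scattered. Among class IIa deacetylases and their MEF2 partners, the activator MEF2D was open with belinostat and not AsiDNA (percentile 47.2) and MEF2B with AsiDNA and not belinostat (10.0). Among interferon-induced genes, BST2, the tetherin gene, was belinostat-only (61.1) and IFI27 AsiDNA-only (35.9); BST2 had a combination peak and no vehicle peak, and IFI27 the reverse. TLR9, an endosomal DNA sensor gene, was belinostat-only (12.5), and the pro-death BCL2 gene HRK AsiDNA-only (14.8). The stem cell genes SALL2 (16.9) and PROM1 (11.6) were AsiDNA-only. Of synaptic genes SHANK2 was belinostat-only (4.26) and GRIN2A (8.13) AsiDNA-only. Of markers of other cell types, the oligodendrocyte gene MBP (7.43), the macrophage gene CD14 (0.358) and the endothelial gene CDH5 (29.04) were belinostat-only, the neuron gene NEFL (1.20) AsiDNA-only, and the germline gene MAEL (2.48) AsiDNA-only. Most of these peaks were thus below the percentile of 20, with BST2 and MEF2D the strongest. At IFI27 the merged region over all lists also held a belinostat peak, outside the gene's window.

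Gene families showed small counts on either side, to be read against 2.31% belinostat-only, 2.27% AsiDNA-only and 64.9% open with both over all genes. Of 149 keratin and keratin-associated genes, 2 were belinostat-only (1.34%) and 8 AsiDNA-only (5.37%), while 25 were open with both. KRTAP5-4 (percentile 78.0) and KRTAP27-1 (7.93) were the belinostat-only members, and KRTAP4-1 (91.9) and KRTAP4-5 (39.96) led the AsiDNA-only ones; these genes lie in arrays of close copies. At KRTAP5-4 and at the collagen gene COL26A1 the merged region also held an AsiDNA peak. Of 250 zinc finger genes on chromosome 19, 6 were belinostat-only (2.40%), near the share over all genes, led by ZNF132 (67.9) and ZNF556 (50.7), and 1, ZNF726 (percentile 36.5), was AsiDNA-only (0.40%). Of 44 collagen genes 4 were belinostat-only (9.09%), among them COL26A1 (44.7) and COL3A1 (16.4), and COL6A6 (30.4) and COL20A1 (0.190) were AsiDNA-only (4.55%). Olfactory receptor genes divided 5 to 6 of 392 (1.28% and 1.53%), both below the shares over all genes, with OR2T11 (35.8) and OR56A5 (57.3) the strongest, and clustered protocadherins 2 to 1 of 48 (4.17% and 2.08%), with PCDHGB2 (27.8), PCDHA13 (12.5) and PCDHGB1 (36.5). Of 85 cytosolic ribosomal protein genes 84 were open with both.

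Beyond the ranked genes, some list members had uneven bodies; these were chosen after their values were seen. EGFR, the receptor gene altered in many glioblastomas, held 9 belinostat-unshared peaks and 1 AsiDNA-unshared peak. In all it held 31 peaks with belinostat, 25 with the combination, 23 with AsiDNA and 20 with vehicle. The 22 receptor kinase genes of its list were nearer level, at 39 and 34, with 9 members leaning to belinostat and 7 to AsiDNA. NFIA, a glial fate regulator gene, held 7 and 1, while its list held 25 and 27. The p53 target SESN1 held 5 and 0, and the synapsin gene SYN3 17 and 7. CDK6, for a G1 kinase, held 2 and 9, and NLGN1, for a synaptic adhesion protein, 4 and 18.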

How the data were processed

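NicE-seq of U87 cells was deposited as 1 peak list per group of 4 libraries. The submitters' processing notes name hg38 and MACS2, beside Bowtie2, Trim Galore 0.5.0, Picard, SAMtools and deepTools; options, an input control, excluded regions and the way libraries were merged are unstated there. Each peak carries the authors' fold enrichment (a ratio), their −log10 q, and their −log10 p, here only a deposited score for ranking peaks. Whether a group's libraries came from separate cultures is unstated, and read depth is unknown.

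Overlaps, percentiles of fold enrichment within a list, gene positions and Wilson 95% intervals were computed in Python 3.11.15 (numpy 2.4.6, pandas 2.3.3). Unshared counts were checked with bedtools 2.31.1, with a difference of 0, and the steps were tested on simulated data. Genes were the 19974 protein-coding genes of RefSeq GRCh38.p14, 15812 of them with listed starts. Genes were named by rule: per drug, the 10 strongest start peaks and 5 strongest distal peaks whose merged region lacks the other drug, 8 gene bodies and 5 windows of 1 Mb by d, and up to 2 members per gene list; 1 window and 1 list member that the rule names are not reported here. The regions and gene lists were chosen with earlier results of these data known. Alternatives were stricter peaks, lists of equal length, a margin between presence and absence, other overlap rules and other windows.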

Additional observations from a re-analysis of the deposited data

How the results depend on the processing

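The contrasts of vehicle status, combination status, distance to a gene end, median width, mean gene density and the ratios on chromosomes 19 and X kept their direction under each alternative computed for them. The vehicle share was lower for belinostat-unshared than AsiDNA-unshared peaks by 24.7 to 39.0 percentage points over 8 settings, and the combination share higher by 23.5 to 36.3. The ratio of mean gene density ran from 1.202 to 1.29 over 10 settings. Which drug had more unshared peaks, as a share of its list, was the same in 4 of 8 settings, and which had more genes open with that drug only in 3 of 7, so neither order is stable. The cause of the changes below was not tested.

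With peaks of −log10 q of 5 or more in both lists, 19.5% of belinostat and 19.1% of AsiDNA peaks were unshared. Vehicle shares were 18.2% and 54.2%, combination shares 59.8% and 26.04%, median widths 301 and 282 bp and median percentiles 20.8 and 23.6. The belinostat median distance was 27449 bp, the density ratio 1.29, the ratio on chromosome 19 2.26 and on X 1.35. Bodies with d of 2 or more numbered 50 and with d of -2 or less 76, and list members open with AsiDNA only 5. With that limit asked of present peaks only (a margin, any peak of the other list making it shared), the unshared peaks were 19125 (15.6%) and 19389 (15.9%), a stricter set by construction. Vehicle shares were 22.7% and 61.7%, combination shares 66.0% and 29.8%, widths 288 and 272 bp, percentiles 29.5 and 32.8, shares at gene ends 3.53% and 3.91%, the density ratio 1.29 and the ratio on chromosome 19 2.10. Genes open with 1 drug only were 271 and 275, ranked bodies 1005, bodies with d of 2 or more 35 and with d of -2 or less 71, and list members 4 and 1.

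With lists of equal length the belinostat unshared share was 20.8%, its combination share 52.8% and its percentile 19.9; with all sequences of the lists its percentile was 20.3. With 50% overlap of the shorter peak the unshared shares were 21.7% and 21.7%, the belinostat vehicle share 19.99% and the AsiDNA combination share 25.6%. With summits within 250 bp they were 25.3% and 24.9%, vehicle shares 30.9% and 55.6%, combination shares 58.3% and 34.8%, widths 292 and 279 bp, percentiles 21.6 and 23.97, distances 27080 and 37653 bp, gene-end shares 6.64% and 6.48%, and the density ratio 1.22. With peaks within 500 bp counted as shared they were 19.3% and 19.2%, the AsiDNA vehicle share 48.8%, its percentile 22.2 and distance 42840 bp, gene-end shares 3.43% and 3.28%, and the density ratio 1.29. Which drug had the larger gene-end share thus turned under both of these last rules.

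Gene-end shares were 1.85% and 1.92% at 500 bp and 7.31% and 7.68% at 2000 bp. Density counted within 2 Mb gave 1.24. With 10 or more unshared peaks asked of a body, 463 were ranked, 31 with d of 2 or more and 42 with d of -2 or less. Chosen after seeing the data, leaving out gene-free windows gave an AsiDNA unshared share of 20.3%, a belinostat vehicle share of 18.6% and percentile of 19.8, distances of 25666 and 33034 bp, an AsiDNA gene-end share of 4.77% and a density ratio of 1.202, and leaving out the 31 of them with 50 or more vehicle peaks a ratio of 1.23. Also added then, promoters with 10 or more CpG were 45.2% of the belinostat-only ones at −log10 q of 5 or more, and the AsiDNA-only promoters numbered 252 where no belinostat peak within 1000 bp was allowed. Over these 2 settings the belinostat share with 10 or more CpG stayed below the AsiDNA share, by 20.9 to 35.0 percentage points against 32.6 in the main setting.

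The 16 named gene bodies kept their direction in every setting that still ranked them, with COL23A1 at 1.89 at −log10 q of 5 or more and 1.63 with the margin, and CEP112 at -1.94 at −log10 q of 5 or more, all short of 2. No paired analysis was possible because each group has 1 list and its columns carry no replicate numbers; for the same reason no library could be left out.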
